A study of Drosophila melanogaster with 11 samples.

Results

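In Drosophila melanogaster, 62 of the 6793 genes named on these microarrays had transcripts that stood above the array median in wild-type embryos at 2 to 3 h after egg laying and close to it in wild-type unfertilized eggs. They were chosen from those measured values. A gene entered when at least 3 wild-type embryo arrays had a value, when their mean log2 ratio to oocyte RNA was at least 1 after the median of each array was subtracted, when every measured wild-type embryo array lay above 0.3, and when the mean over the unfertilized-egg arrays lay between -0.5 and 0.5. Another 17 genes met these bounds and were left out by name. The wild-type embryo and unfertilized-egg values of the 62 members are therefore a description, and were not tested. The smg arrays were not used in the choice, and were tested.

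An egg of the fly is laid with RNA and protein made by the mother. At the maternal-to-zygotic transition many of these stored transcripts are destroyed, and the nuclei of the embryo begin to transcribe their own genes, with the largest wave as the blastoderm forms cells. A laid but unfertilized egg is activated and destroys some maternal transcripts, yet has no dividing zygotic nuclei. smg (smaug) encodes an RNA-binding protein that represses maternal mRNAs and recruits the enzymes that shorten their poly(A) tails, and the series' title ties it to zygotic transcription.

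The study hybridised cDNA of total RNA, made with random primers, to 2-colour arrays of the 12K fly cDNA set, each array being shared with RNA from stage 14 oocytes of the wild-type strain w1118. There were 4 arrays of w1118 embryos collected at 2 to 3 h, 4 arrays labelled SMG from the same hours (called smg here), and 3 arrays of w1118 eggs that were unfertilized and 4 to 6 h old. Of the 4 smg arrays, replicate 4 has SMGoverDf as its source, and the other 3 have SMG. No allele is given, nor whether the mother or the embryo carried it. At 2 to 3 h each channel held 60 µg of RNA, and indirect labelling put the sample into Alexa Fluor 647 and the oocytes into Alexa Fluor 555. For unfertilized eggs, direct labelling put the sample into Cy3 and the oocytes into Cy5, so that age, fertilization, dye and labelling cannot be told apart between those eggs and the embryos. Nothing in the labels says that replicates came from separate collections, and p-values measure only the spread between these arrays.

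Every level below is a log2 ratio to oocyte RNA with the array median subtracted: 0 is the middle gene of that array, and 1 is a ratio 2 times as high as that gene's. The numerator of the deposited ratio is not stated, and sample over oocyte is likely from the titles and from the fall of the yolk protein genes given near the end. A level in whole embryos does not tell whether fewer cells held a transcript or each cell held less of it, and does not separate RNA newly made from RNA kept while other RNA was lost.

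Replicate 1 of wild-type embryos and of smg held values for 48.9% and 51.1% of spots, against 74.98% to 99.1% on the other arrays, with deposited medians of -4.01 and -4.43 against medians between -0.37 and 0.16 elsewhere. smg replicate 3 correlated over all spots at -0.505 with smg replicate 1, at -0.357 with smg replicate 2 and at -0.453 with wild-type embryo replicate 1, and at 0.745 with smg replicate 4. The 3 yolk protein genes, which lay below 0 on every array, had a median of -1.75 on it, and turning its sign would put them above 0. The direction of smg replicate 3 is therefore not settled by the values, and the smg counts, tests and named smg means are given also with its sign turned. smg replicate 4 also correlated below 0 over all spots with smg replicates 1 and 2 (-0.20 and -0.173) and wild-type embryo replicate 1 (-0.175). With wild-type embryo replicate 4 it correlated at 0.233. Turning replicate 3 alone would reverse the sign of its correlation with smg replicate 4, which was not turned. Replicate 1 of wild-type embryos and replicate 1 of smg correlated at 0.787 over genes. The transcript of smg itself did not set the smg arrays apart as a group, although it was lower in every wild-type embryo array than in every unfertilized-egg array. It read -2.60, -0.77, -1.44 and -1.12 in wild-type embryos, while the smg arrays gave -2.66, -1.18, 2.02 and 0.21 and the unfertilized eggs -0.39, -0.18 and 0.17, so that smg replicates 3 and 4 stood above every wild-type embryo array. Slide numbers place replicates 1 and 2 of both genotypes on earlier slides, and replicates 3 and 4 on later slides.

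Of the 6793 genes, 6328 had a value on 3 or more wild-type embryo arrays. A mean of at least 1 left 97 genes, a value above 0.3 on every measured array left 83, and the window for unfertilized eggs left 79. That window removed 1 gene above it and 3 below it. All 4 wild-type embryo arrays measured 43 members, and the other 19 lacked a value on replicate 1. On the smg arrays 53 members had at least 3 values, and the remaining 9 (Ptr, BNIP3, corn, Ndae1, Mettl2, CG4440, CG1806, drl and CG11454) had 1 or 2 and were not tested. Most members stood only moderately high: 40 of 62 had a wild-type mean under 1.5, 11 had a mean of 2 or more, and 2 had a mean of 3 or more. The median over members of the wild-type mean was 1.32.

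Members near the bounds differed little from genes outside them. CG13096, wwk and Aps entered with wild-type means of 1.01, 1.01 and 1.04, while CG5346, cass and Gasp stayed out at 0.999, 0.994 and 0.994. The lowest wild-type array of CG6885, CG10333 and CG13096 read 0.33, 0.45 and 0.45, and that of kin17, Inx2 and Mlc2, which stayed out, read 0.298, 0.297 and 0.295. At the lower edge of the window for unfertilized eggs, CG43394, nerfin-1 and nkd entered at -0.48, -0.45 and -0.33, and Atg17, ush and atilla stayed out at -0.63, -0.75 and -0.84. At the upper edge the members closest to the bound were CG1806 at 0.48, Aps at 0.48 and CNT1 at 0.44.

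**Figure D1:**
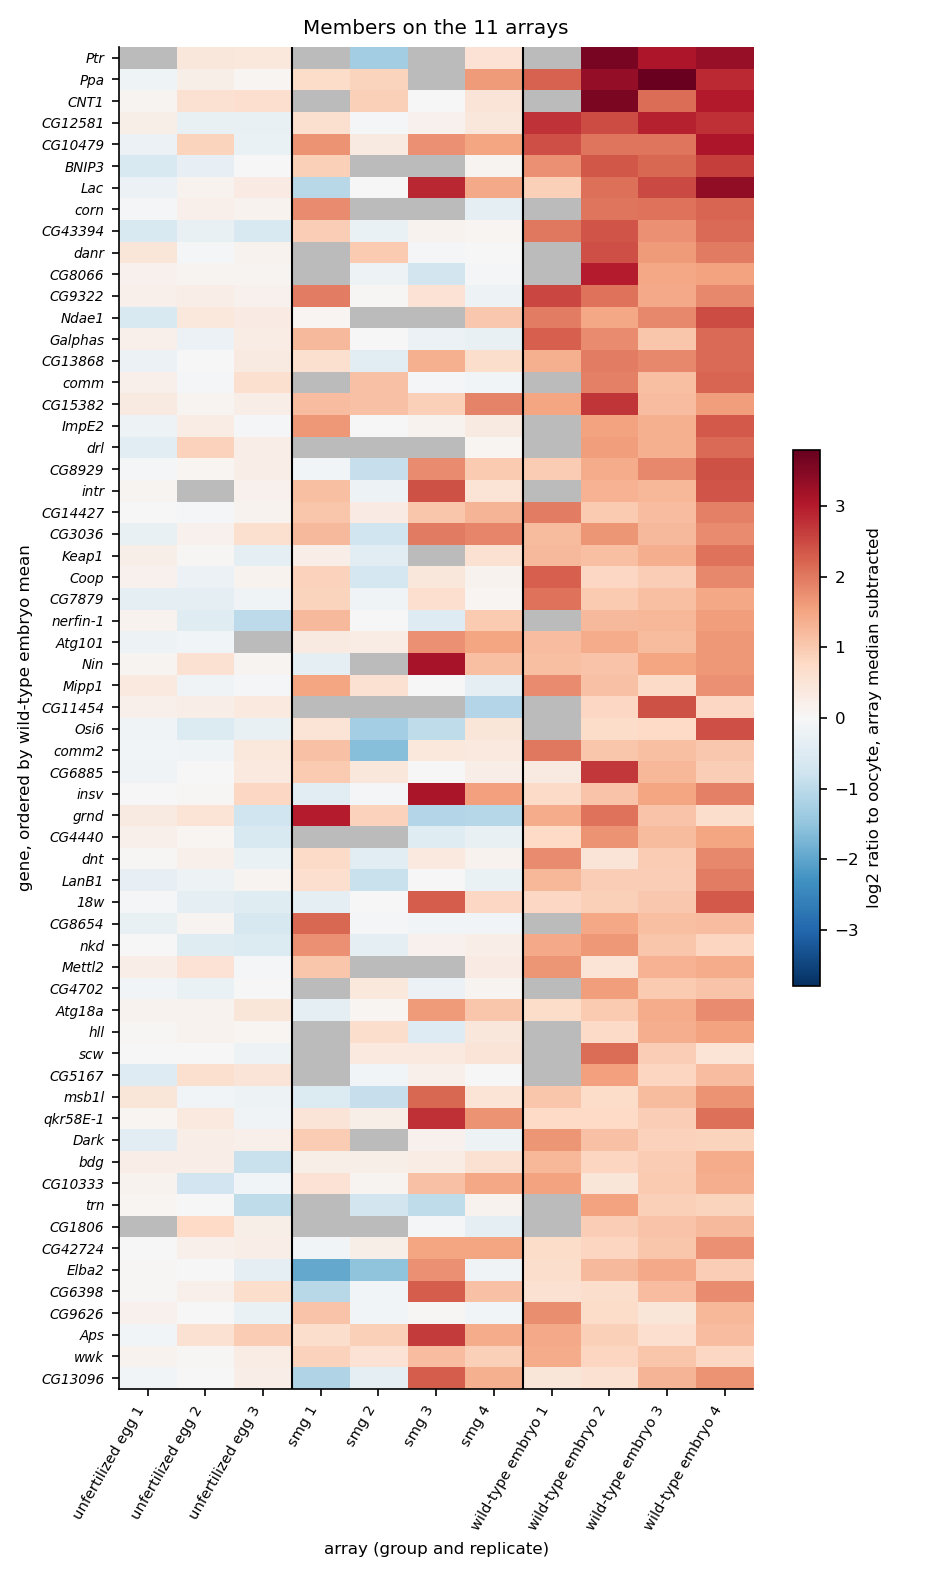
Log2 ratio to oocyte RNA, with the array median subtracted, for the 62 members (rows, ordered by wild-type embryo mean) on the 11 arrays (columns, by group and replicate); red is above and blue below the array median, and grey is no value. The wild-type embryo columns are red throughout by the choice of members, while the smg columns mix red, pale and blue. Across the smg arrays 24 of 53 members reach from below 0 to above 1, against 41.5% of all genes (29 against 28.7% with smg replicate 3 turned).

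Ptr, which encodes a Patched-related membrane protein, had the highest wild-type mean. Its wild-type embryo levels were 3.61, 3.07 and 3.32 on replicates 2 to 4, a mean of 3.33 ± 0.27 (SD, n = 3). The smg arrays gave -1.33 and 0.56 on replicates 2 and 4, and unfertilized eggs 0.43 and 0.40 on replicates 2 and 3. Every measured smg array lay below every wild-type embryo array, and only 1 of the 2 lay above 0.

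Ppa, which encodes an F-box protein that marks other proteins for destruction, read 2.23, 3.33, 3.76 and 2.85 in wild-type embryos (mean 3.04 ± 0.65 (SD, n = 4)). In smg it read 0.70, 0.85 and 1.62 on replicates 1, 2 and 4, and in unfertilized eggs -0.16, 0.22 and 0.077. All of its measured smg arrays stood above 0.3 and all stood below the lowest wild-type array, whichever way replicate 3 is turned, since that replicate had no value.

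CNT1, a concentrative nucleoside transporter, read 3.57, 2.12 and 3.03 on replicates 2 to 4 in wild-type embryos, against 0.92, -0.018 and 0.48 on replicates 2 to 4 in smg and 0.11, 0.57 and 0.64 in unfertilized eggs. CG12581, a gene with no name beyond its identifier, was steady at 2.75, 2.48, 2.92 and 2.77 in wild-type embryos, with a mean of 2.73 ± 0.18 (SD, n = 4). Its smg levels were 0.60, -0.044, 0.17 and 0.44, and its unfertilized-egg levels 0.23, -0.30 and -0.29. The smg and wild-type embryo arrays of CG12581 were separated by a gap of more than 1 log2 unit, although its 4 spots differed by 1.07 in wild-type mean, the widest spot range of any member.

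CG10479 stood above 1 on 3 of 4 smg arrays. It read 2.46, 2.03, 2.02 and 3.08 in wild-type embryos and 1.70, 0.35, 1.74 and 1.49 in smg, with -0.23, 0.85 and -0.26 in unfertilized eggs. BNIP3, a receptor for the removal of mitochondria, read 1.73, 2.35, 2.18 and 2.61 in wild-type embryos but had only 0.89 and 0.11 on replicates 1 and 4 in smg and -0.59, -0.32 and -0.030 in unfertilized eggs. Lac, an immunoglobulin-domain protein of septate junctions, varied most among the high members: its wild-type embryo levels were 0.91, 2.08, 2.49 and 3.37, and its smg levels -1.06, -0.0035, 2.86 and 1.45. The smg values of Lac fell on both sides of 0, with replicate 3 above 3 of the 4 wild-type embryo arrays.

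The remaining high members were corn, CG43394, danr, CG8066 and CG9322. corn, which encodes a microtubule-binding protein, read 2.03, 2.08 and 2.20 on replicates 2 to 4 in wild-type embryos and 1.79 and -0.37 on replicates 1 and 4 in smg. CG43394 read 2.00, 2.38, 1.75 and 2.16 in wild-type embryos, against 0.92, -0.25, 0.12 and 0.075 in smg and -0.57, -0.28 and -0.59 in unfertilized eggs, where it was below 0 on each array. danr, a transcription factor of the pipsqueak type, read 2.44, 1.61 and 1.97 on replicates 2 to 4 in wild-type embryos and 0.99, -0.061 and -0.012 on replicates 2 to 4 in smg. The only smg array of danr above 0 was replicate 2, and it lay below the lowest wild-type embryo array.

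CG8066 read 2.99, 1.48 and 1.54 on replicates 2 to 4 in wild-type embryos and -0.18, -0.71 and -0.033 on replicates 2 to 4 in smg, below 0 on each measured smg array. CG9322 read 2.53, 2.05, 1.45 and 1.84 in wild-type embryos and 1.94, 0.035, 0.56 and -0.18 in smg, where only replicate 1 was within the wild-type range. Of these 12 members, 9 had at least 3 smg arrays, and the smg replicate that came highest differed from gene to gene. Their smg means with replicate 3 turned were 0.47 for CNT1, 0.21 for CG12581, -0.62 for Lac, 0.16 for CG43394, 0.35 for danr and 0.31 for CG9322, against 0.46, 0.29, 0.81, 0.22, 0.31 and 0.59 as deposited in sign.

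**Figure D2:**
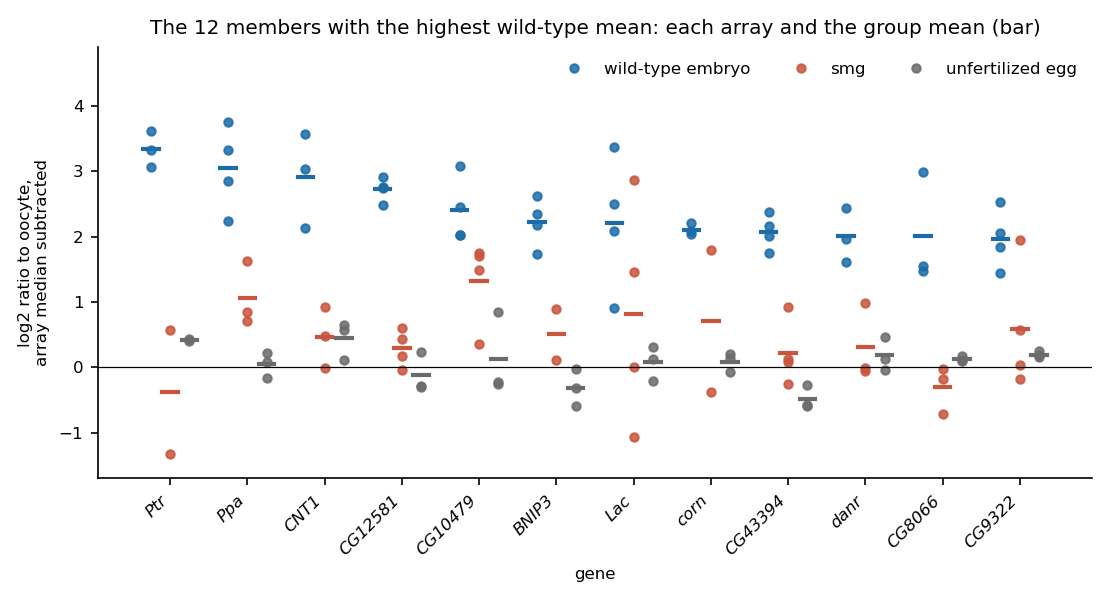
Log2 ratio to oocyte RNA, with the array median subtracted, for the 12 members with the highest wild-type mean; each point is an array, each bar the mean of a group, in blue for wild-type embryos, red for smg and grey for unfertilized eggs. Wild-type embryo means run from 1.97 (CG9322) to 3.33 (Ptr), and Lac has the widest smg range of the 12, from -1.06 to 2.86.

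On the smg arrays the members as a whole stood lower than on the wild-type embryo arrays, by which they were chosen. That choice by itself raises the wild-type embryo medians and holds the unfertilized-egg medians near 0, so the contrast is a description only. The median over members was 1.40, 1.36, 1.21 and 1.76 on the wild-type embryo arrays, 0.79, -0.026, 0.38 and 0.44 on the smg arrays, and 0.033, 0.065 and 0.11 on the unfertilized-egg arrays. smg replicate 2 thus lay below the unfertilized-egg arrays and the other smg arrays between them and the wild-type embryo arrays. Averaged over arrays, the median was 1.43 ± 0.24 (SD, n = 4) in wild-type embryos and 0.39 ± 0.33 (SD, n = 4) in smg. Turning smg replicate 3 makes its median -0.38. The share of members above 0 on the smg arrays was 37 of 48, 23 of 52, 38 of 53 and 45 of 62.

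**Figure D3:**
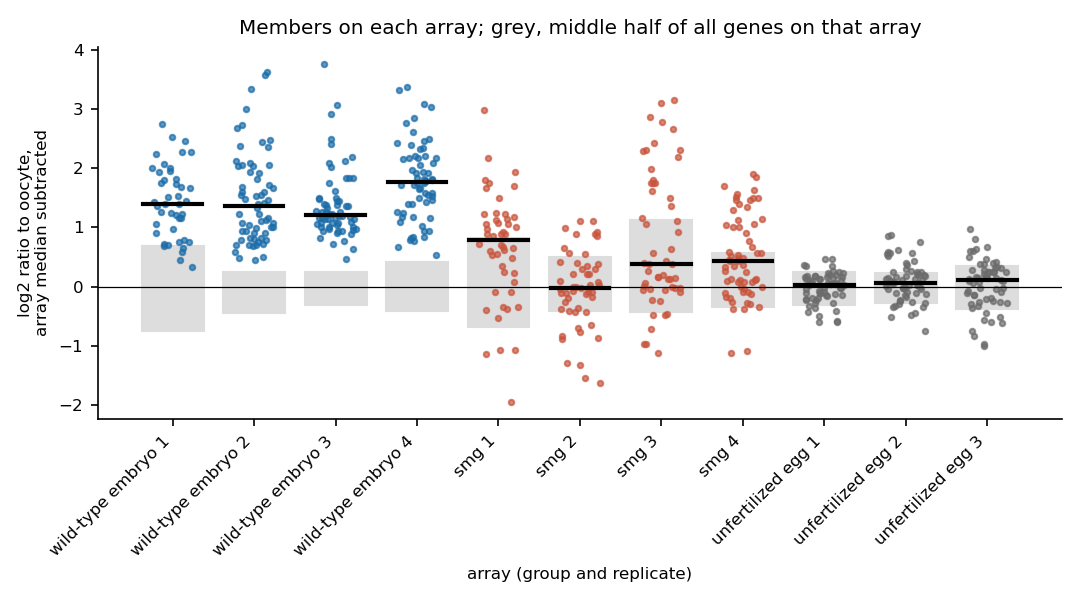
Each point is a member on an array (log2 ratio to oocyte RNA, array median subtracted), the black bar is the median of the members, and the grey box spans the middle of all genes on that array from the lower to the upper quartile. The member medians are 1.21 to 1.76 on wild-type embryo arrays, -0.026 to 0.79 on smg arrays and 0.033 to 0.11 on unfertilized-egg arrays. The wild-type embryo and unfertilized-egg values were used to choose the members.

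Whether the ratio to oocyte RNA of a member stood above that of the middle gene in smg was tested with limma on the 4 smg arrays alone, for 6112 genes with at least 3 values, with Benjamini-Hochberg adjustment over all of them and a threshold of 0.05. No member passed in either direction (0 of 53, smallest adjusted p = 0.959 by limma). Over all genes 0.0% were called higher and 0.0164% lower, the latter being the yolk protein gene Yp1 alone. After turning replicate 3, no gene passed, and the smallest adjusted p among members was 0.926 by limma. With the set of slides as a block in a fit of all 8 arrays at 2 to 3 h, 2 of 53 members passed upward, against 0.19% of 5791 genes: Aps at 1.40 and CG10479 at 1.32, each higher on 4 of 4 smg arrays (adjusted p = 0.0493 by limma for both). Under the turned sign of replicate 3 that fit called 0.0% of genes higher and no member. The means were then 0.076 for Aps and 0.45 for CG10479, each above 0 on 3 of 4 smg arrays. At an unadjusted p under 0.05 the turned fit had 3 members higher, against 2.02% of all genes, and 1 lower, against 6.87%. The blocked fit takes part of its spread from the wild-type embryo arrays, which the choice of members used. At an unadjusted p under 0.05, 9 of 53 members were higher, against 2.54% of all genes: Aps, Atg101, CG10479, CG14427, CG15382, CG3036, Ppa, qkr58E-1 and wwk. With replicate 3 turned the count was 1 (Ppa), against 0.278%. Leaving out an smg array in turn moved the count between 2 of 53 without replicate 4, where 0.505% of all genes were higher, and 12 of 56 without replicate 1, where 5.96% were.

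The bounds of the wild-type rule were then applied to smg. A mean of at least 1 with every measured smg array above 0.3 was met by 4 of 53 members (Aps, CG10479, CG15382 and Ppa), against 0.802% of the genes tested. After turning replicate 3, 1 member met it (Ppa), against 0.0491%. Without smg replicate 2, the array on which members lay lowest, 10 of 59 met it, against 2.36%. Every measured smg array lay above 0 for 13 of 53 members, against 9.36% of genes, for 4 against 7.67% with replicate 3 turned, and for 27 of 59 against 16.8% without replicate 2.

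The smg mean was above 0 for 48 of 53 members, against 61.8% of genes. It was above 0 for 36 of 53 with replicate 3 turned, against 52.0%, and for 36 of 53, against 37.6%, when each array was centred instead on the 3393 genes measured on all 8 arrays at 2 to 3 h. That centring moved the median smg level of all genes from 0.13 to -0.17 and that of the members from 0.43 to 0.17. Within the earlier set of slides 40 of 58 members had an smg mean above 0, against 55.9% of genes, and within the later set 44 of 62, against 47.2%. The members were chosen on wild-type embryo arrays that share the oocyte reference and the sets of slides with the smg arrays. How much of a member's smg level comes with that sharing was not tested, and none of the counts is a test.

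Among the 53 members the median smg mean was 0.43, with a range from -0.52 to 1.40, and with replicate 3 turned it was 0.16. The median over all genes was 0.13, and 0.027 with replicate 3 turned. The smg mean lay below the wild-type mean for 51 of 53 members and for 36.1% of all genes. The median difference, smg minus wild type, was -0.93 for the members and 0.17 for all genes, or -1.38 and 0.065 with replicate 3 turned. Members were chosen for high wild-type levels, which lowers this difference by itself, and no test was drawn from it. For the same reason nothing is read from the 19 of 53 members whose smg arrays all lay below all wild-type embryo arrays (4.04% of all genes; 22 members and 2.18% with replicate 3 turned), nor from the members called lower in a limma fit of the 8 arrays. These were CG12581 alone, where 0.0863% of genes were called, and 7 (CG12581, CG43394, CG8066, CNT1, Galphas, Ppa and danr) with the set of slides as a block, where 0.363% were. Under the turned sign of replicate 3 the counts were 1 (CG12581) and 0.

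**Figure D4:**
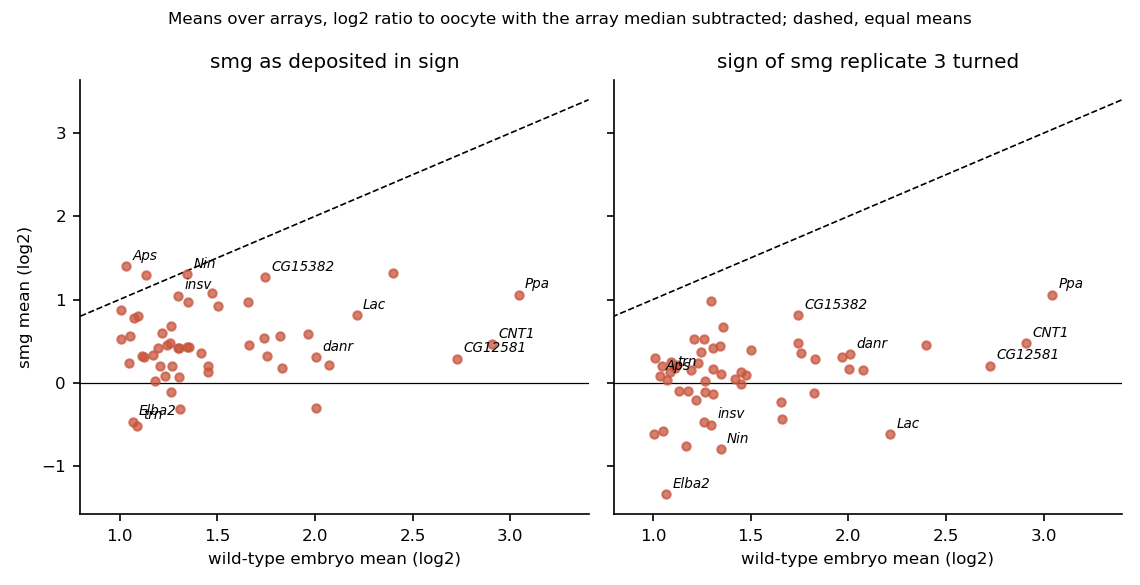
Mean smg level against mean wild-type embryo level (both log2 ratio to oocyte RNA, array median subtracted) for the 53 members with at least 3 smg arrays; the dashed line marks equal means, and the right panel has the sign of smg replicate 3 turned. On the left 51 of 53 points lie below the line and 48 lie above 0; on the right 36 lie above 0.

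The 8 highest smg means belonged to Aps, CG10479, Nin, qkr58E-1, CG15382, CG3036, Ppa and insv, of which CG10479 and Ppa also had wild-type means among the 12 highest. Aps, which encodes a phosphohydrolase of diphosphoinositol polyphosphates, read 0.67, 0.89, 2.65 and 1.40 in smg and 1.45, 0.90, 0.63 and 1.16 in wild-type embryos. In unfertilized eggs Aps read -0.12, 0.56 and 0.98, where replicate 3 stood above wild-type embryo replicates 2 and 3. CG10479 followed, with an smg mean of 1.32 ± 0.66 (SD, n = 4). Aps was above 0.3 on every array of both genotypes, and its smg mean of 1.40 ± 0.89 (SD, n = 4) was the highest of the 53. With replicate 3 turned Aps had a mean of 0.076 and CG10479 of 0.45, and the highest mean was that of Ppa at 1.06.

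Nin, the ninein-like protein of centrosomes and microtubules, read -0.38, 3.15 and 1.14 on replicates 1, 3 and 4 in smg, where replicate 3 stood far above the others, and 1.16, 1.08, 1.498 and 1.66 in wild-type embryos. qkr58E-1, an RNA-binding protein of the quaking family, read 0.48, 0.21, 2.77 and 1.69 in smg and 0.75, 0.76, 0.94 and 2.09 in wild-type embryos, with the later slides higher in both. After turning replicate 3, the smg mean of Nin was -0.79 and that of qkr58E-1 -0.097, and with it left out 0.38 and 0.79.

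CG15382 had the most even smg levels of this group, 1.18, 1.10, 0.91 and 1.90, beside 1.505, 2.72, 1.18 and 1.58 in wild-type embryos and 0.34, 0.097 and 0.25 in unfertilized eggs. CG3036 read 1.25, -0.76, 1.98 and 1.85 in smg and 1.20, 1.69, 1.22 and 1.79 in wild-type embryos. insv, a BEN-domain corepressor that acts beside Notch signalling, read -0.39, -0.087, 3.10 and 1.57 in smg and 0.72, 1.08, 1.49 and 1.91 in wild-type embryos. In CG3036 only replicate 2 was below 0, while in insv replicates 1 and 2 were below 0 and replicates 3 and 4 above 1.5. Under the turned sign of replicate 3 the smg means were 0.82 for CG15382, 0.087 for CG3036 and -0.50 for insv.

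At the other end, 5 of 53 members had an smg mean below 0: trn, Elba2, Osi6, CG8066 and LanB1. With replicate 3 turned 17 of 53 did, and the means were 0.12 for trn, 0.17 for Osi6, 0.17 for CG8066, -1.34 for Elba2 and -0.11 for LanB1. trn, a leucine-rich repeat protein of the cell surface, read -0.71, -0.96 and 0.12 on replicates 2 to 4 in smg and 1.53, 0.90 and 0.83 on replicates 2 to 4 in wild-type embryos. Elba2, a BEN-domain subunit of the ELBA insulator complex, read -1.95, -1.54, 1.75 and -0.12 in smg, a range of more than 3 log2 units, and 0.66, 1.23, 1.45 and 0.94 in wild-type embryos. Osi6, of the Osiris family of membrane proteins, read 0.53, -1.29, -0.97 and 0.45 in smg and 0.70, 0.77 and 2.46 on replicates 2 to 4 in wild-type embryos, where replicate 4 alone passed 1. No smg array of trn or Osi6 reached a wild-type embryo array of the same gene, but with replicate 3 turned both genes overlap.

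LanB1, a laminin chain of the basement membrane, read 0.65, -0.84, 0.0097 and -0.26 in smg and 1.25, 0.94, 0.94 and 1.94 in wild-type embryos. CG5167 read -0.11, 0.19 and -0.012 on replicates 2 to 4 in smg and 1.55, 0.81 and 1.18 on replicates 2 to 4 in wild-type embryos. CG4702 read 0.39, -0.24 and 0.096 on replicates 2 to 4 in smg and 1.59, 1.001 and 1.10 on replicates 2 to 4 in wild-type embryos. In these 3 genes every smg array lay below every wild-type embryo array, also with replicate 3 turned, when CG5167 had a mean of -0.10 and CG4702 of 0.24. comm2, a relative of the guidance gene commissureless, read 1.12, -1.62, 0.41 and 0.36 in smg and 2.00, 1.05, 1.15 and 1.02 in wild-type embryos, and its smg replicate 1 was within the wild-type range (mean -0.14 with replicate 3 turned).

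With the sign as deposited, the spread over smg arrays was wide for the members and for all genes alike. Reaching from below 0 to above 1 were 24 of 53 members against 41.5% of all genes. With replicate 3 turned they were 29 of 53 against 28.7%, a higher share of the members than of all genes. The median SD over smg arrays was 0.71 for members and 0.72 for all genes, against 0.47 and 0.41 over wild-type embryo arrays. Replicate 3 was the highest smg array for 20 members, replicate 1 for 19, replicate 4 for 9 and replicate 2 for 5. Above 1.5 stood 17 members on smg replicate 3 and 8 on replicate 1. Shares over all genes were not taken for these counts or for the highest array, so nothing about the members is read from them. The upper quartile of all genes was 0.81, 0.50, 1.13 and 0.57 on smg replicates 1 to 4, highest on replicate 3. In smg the later slides stood above the earlier for 35 of 58 members, against 47.5% of all genes. In wild-type embryos they did so for 33 of 58, against 51.2%. The median differences of the members were 0.20 in smg and 0.15 in wild-type embryos. Over all genes these medians were -0.090 and 0.016.

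Ordered by role, 5 members act in transcription and chromatin: danr, insv, Elba2, Coop and nerfin-1. Coop is a corepressor of the Wnt pathway factor Pangolin, and nerfin-1 is a zinc-finger factor of young neurons. Their wild-type means ran from 1.07 (Elba2) to 2.01 (danr) and their smg means from -0.47 (Elba2) to 1.05 (insv), with a median of 0.31. After turning replicate 3, the median was -0.016. nerfin-1 was lowest in unfertilized eggs, at -0.45 ± 0.57 (SD, n = 3).

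Signalling genes made up 8 members. scw encodes a BMP-type ligand of dorsal-ventral patterning and had even smg levels of 0.37, 0.38 and 0.48 on replicates 2 to 4, beside 2.12, 0.95 and 0.53 on replicates 2 to 4 in wild-type embryos. Receptors were grnd, a TNF receptor for Eiger, dnt and drl, of the Ryk family that binds Wnt proteins, and 18w, of the Toll family. nkd is an inhibitor that Wnt signalling itself induces, Galphas is the stimulatory G protein subunit, and Ptr was described above. The 6 with at least 3 smg arrays had smg means between 0.18 (Galphas) and 0.68 (18w), all above 0, where 61.8% of all genes were, with a median of 0.41. Under the turned sign of replicate 3 the range was -0.47 (18w) to 0.98 (grnd), with 1 of 6 below 0 and a median of 0.22.

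The signalling members did not share a pattern over the smg arrays. grnd read 2.99, 0.89, -1.12 and -1.08 in smg, highest on the earlier slides, while 18w read -0.34, -0.0080, 2.31 and 0.78, highest on the later slides. In wild-type embryos grnd read 1.40, 2.05, 1.07 and 0.67 and 18w read 0.79, 0.91, 1.01 and 2.34, also with the earlier and the later slides high, respectively. Per-array values of grnd, 18w and scw were chosen for display after they were seen.

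Adhesion, matrix and guidance held 5 members: Lac, comm, comm2, trn and LanB1. comm sorts the axon guidance receptor Robo away from the cell surface. This group had the lowest median smg mean of the groups with at least 4 tested members, 0.067, or -0.11 with replicate 3 turned. Its wild-type means ran from 1.09 (trn) to 2.21 (Lac).

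Transport and metabolism held 6 members: CNT1, the sodium-driven anion exchanger Ndae1, bdg of the neurotransmitter transporter family, the inositol polyphosphate phosphatase Mipp1, Aps, and hll of the acyl-CoA synthetase family. The smg means of the 5 with at least 3 arrays ran from 0.20 (hll) to 1.40 (Aps), all above 0, with a median of 0.42. With replicate 3 turned they ran from 0.076 (Aps) to 0.53 (hll), with a median of 0.44. bdg was narrow in both genotypes, with an smg mean of 0.32 ± 0.17 (SD, n = 4) and a wild-type mean of 1.11 ± 0.26 (SD, n = 4).

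Autophagy, cell death and stress held 5 members: BNIP3, Atg101 and Atg18a, which act in forming autophagosomes, Dark, the fly's Apaf-1 that activates caspases, and Keap1, a sensor of redox stress. The 4 with at least 3 smg arrays had smg means from 0.13 (Keap1) to 0.97 (Atg101), with a median of 0.45. After turning replicate 3, they ran from -0.21 (Atg18a) to 0.21 (Dark), with a median of 0.12. Their wild-type means ran from 1.12 (Dark) to 2.22 (BNIP3).

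RNA binding and modification was represented by qkr58E-1 and the methyltransferase Mettl2, the cytoskeleton by Nin and corn, and protein turnover by Ppa. The other 28 members carry only a CG identifier (23 genes) or a name without a role stated here (wwk, msb1l, ImpE2, intr and Osi6). The 25 of them with at least 3 smg arrays had smg means from -0.32 (Osi6) to 1.32 (CG10479), with a median of 0.53, or 0.17 with replicate 3 turned. Below 0 were 2 of the 25, or 7 with replicate 3 turned. Their unfertilized-egg means ran from -0.48 (CG43394) to 0.48 (CG1806), which is the whole range of the members.

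Some members lie near each other in the fly genome, by the gene order of the RefSeq annotation (assembly Release 6 plus ISO1 MT). Within 5 protein-coding genes of each other were 5 pairs of members, and another 2 pairs joined a member with a gene that the rule names for omission. Elba2 and insv, both of the BEN-domain family, are direct neighbours. Their smg means were -0.47 ± 1.67 and 1.05 ± 1.62 (SD, n = 4), or -1.34 and -0.50 with replicate 3 turned. They had the same order over the smg arrays, rising from replicate 1 through 2 and 4 to replicate 3, with replicates 1 and 2 below 0. Lac, 18w, CG6398 and CG13096 had that order too, and CG8929 and msb1l differed from it only in having replicate 2 lowest. The share of all genes with that order was not taken, and smg replicates 3 and 4 correlated at 0.762 over genes. comm and comm2 have 2 coding genes between them, and dnt and drl have 3. These pairs are related in sequence, and cross-hybridisation between related cDNAs was not tested.

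The genes between the pairs were not high where they were measured. Between dnt and drl, CG17564 had a wild-type mean of 0.29 and CG10750 of 0.26. Between 18w and CG8654, CG16898 had 0.40. Between CG13868 and CG8929, the 3 genes CG13871, tapas and MED8 had 0.088, -0.27 and 0.013, where the pair itself had 1.82 and 1.66. This holds by the choice of members, and no test was made of it.

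Atg101 is the direct neighbour of bnb, which met the bounds and was left out by name. danr lies 1 coding gene from its relative dan, which the rule also names but which lay above the window in unfertilized eggs. bnb had a wild-type mean of 3.89 ± 0.56 (SD, n = 3) and an smg mean of 1.60 ± 0.59 (SD, n = 4). dan had 3.501 ± 0.46 (SD, n = 4) in wild-type embryos, 1.03 ± 0.48 (SD, n = 4) in smg and 0.69 ± 0.63 (SD, n = 3) in unfertilized eggs. Both neighbours stood above the member beside them in wild-type embryos.

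**Figure D5:**
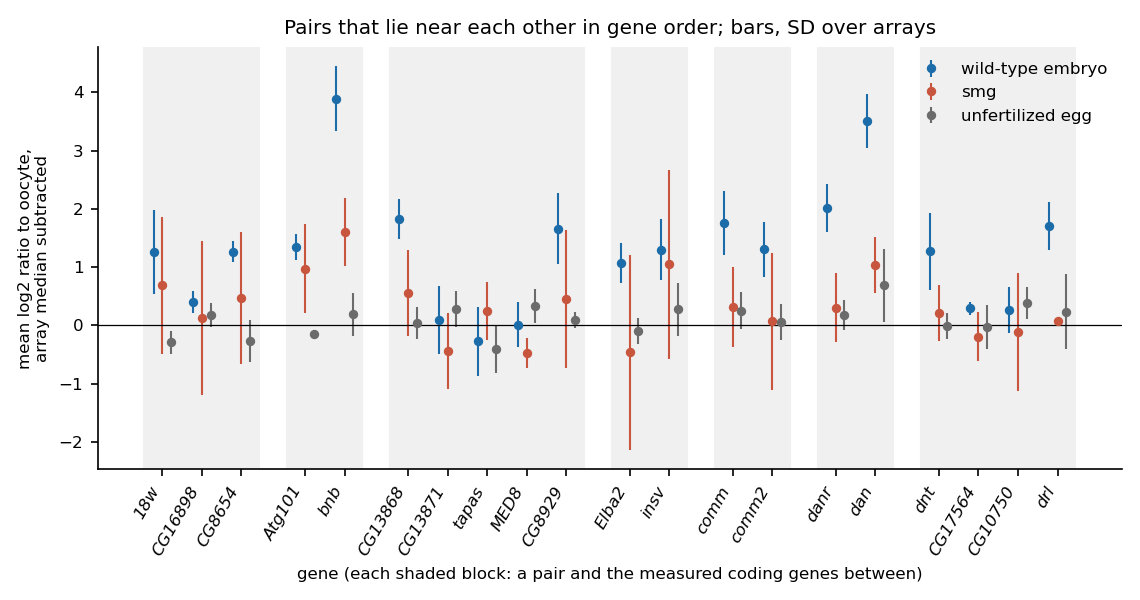
Mean log2 ratio to oocyte RNA, array median subtracted, with bars for the SD over arrays, for 7 pairs of nearby genes and the measured coding genes between them; each shaded block is a pair, with wild-type embryos in blue, smg in red and unfertilized eggs in grey. The genes at the ends of a block are high in wild-type embryos and those between them lie from -0.27 to 0.40.

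Beside the members stands a list of 64 textbook early zygotic genes, of which 21 were on named spots and only scw is a member. In a limma fit of the wild-type embryo arrays, 19 were tested and 18 of these had a mean above 0, with a median of 0.51 against 0.0097 for all genes. Passing upward were 4 (2.4% of all genes did): Sry-alpha, ush, fkh and scw. scw, Sry-alpha and ush met the rule's wild-type embryo bounds on these same arrays, so their calls are no independent result. This leaves fkh, whose mean was below the bound of 1. Only cad passed downward (9.45% of all genes did). Sry-alpha, a gene of cellularization left out by name, had a mean of 3.92 (SE 0.35, adjusted p = 1.09e-04 by limma), with 4.87, 4.00 and 2.88 on replicates 2 to 4.

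fkh, a forkhead factor of the gut, had 0.87 (SE 0.19, adjusted p = 0.0125 by limma) and was above 0 on 4 of 4 arrays. ush, a cofactor of GATA factors, had 1.07 (SE 0.27, adjusted p = 0.0286 by limma), with 0.40, 0.79, 0.95 and 2.14, and stayed out because it was below the window in unfertilized eggs. cad, a caudal homeobox factor stored by the mother, had -1.62 (SE 0.21, adjusted p = 6.04e-04 by limma) and was below 0 on 4 of 4 arrays. The call of ush was lost without wild-type embryo replicate 4 (0.71, adjusted p = 0.0855 by limma), and that of fkh without replicate 3 (0.85, adjusted p = 0.13 by limma). The call of scw was lost without replicate 2 (0.74, adjusted p = 0.186 by limma) and without replicate 4 (1.53, adjusted p = 0.0597 by limma).

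In smg none of the 19 listed genes tested passed limma's threshold, and 3 were higher at an unadjusted p under 0.05, where 2.54% of all genes were. Under the turned sign of replicate 3 0 of 19 were higher, where 0.278% of all genes were, and 1 was lower. Their median smg mean was 0.40, or 0.16 with replicate 3 turned, beside 0.43 and 0.16 for the members and 0.13 and 0.027 for all genes. Both turned medians of 0.16 are the value of scw, which is in the list and among the members. The highest smg level of the list was that of CG8960, at 2.11, 2.22 and 2.65 on replicates 2 to 4, with 3.76 and 3.29 on replicates 2 and 3 in wild-type embryos and -0.46 and 0.16 on replicates 2 and 3 in unfertilized eggs. CG8960 had too few wild-type embryo arrays to enter the members, and its smg mean of 2.33 had an adjusted p of 0.433 by limma over 3 arrays, each above 2.

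Markers of other material were also read. Of 16 genes of eggshell, yolk and follicle cells, the 3 yolk protein genes were on named spots, and all 3 passed downward in wild-type embryos by limma. They were below 0 on all 11 arrays, with medians between -2.71 and -1.06. Of 14 genes of later embryos, muscle and neurons, 4 were on named spots and none passed by limma in wild-type embryos, 1 having an unadjusted p under 0.05. Their median was 0.51, 0.21, 0.11 and 1.05 on the wild-type embryo arrays, 0.64, -0.091, 0.32 and 0.33 on the smg arrays and -0.020, -0.084 and 0.80 in unfertilized eggs. It was highest on wild-type embryo replicate 4, the array on which the median of the members was also highest, and its part in the members' levels was not tested.

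Of 16 maternal transcripts known to be degraded, 10 were on named spots and 5 passed downward in wild-type embryos by limma (osk, exu, swa, CycB and smg), where 9.45% of all genes did. Their list median was -1.55, -0.83, -0.69 and -0.40 on the wild-type embryo arrays and -0.58, -0.21, 0.79 and 0.13 on the smg arrays. smg replicates 3 and 4 had the highest medians of this list and also the largest shifts, of -0.87 and -0.45, when arrays were centred on the 3393 common genes. The part of maternal RNA in the smg levels of the members was not tested.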

How the data were processed

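Scans were read with QuantArray 3 and normalized by rank-invariant LOWESS in GeneTraffic Duo 3.2, per the submitters' design text. The deposited values are log2 ratios, 1 for each spot of an array, with base 2 inferred from their range. The sources used here give no background correction, spot filter or channel intensity, and the number of arrays limits the precision.

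Of 27648 spots, 15116 carried a single gene in the platform's probe table, 102 carried several and 12430 had no entry. Averaging the spots of each gene gave 6793 genes, and 6691 of them were found in RefSeq (assembly Release 6 plus ISO1 MT), which served for names and gene order. Each array's median was subtracted, since deposited medians differ between arrays. The 4 smg arrays were tested against 0 in R 4.3.3 with limma 3.58.1 (lmFit, then eBayes), two-sided, for genes with at least 3 values, with Benjamini-Hochberg adjustment over all of them and a threshold of 0.05. The wild-type embryo arrays were fitted alone in the same way for the gene lists. The fit was checked on simulated data with a smaller spread than that of the smg arrays. That check does not show how often the fit would call a change at the real spread. The unfertilized-egg arrays entered no fit.

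Replicate numbers follow deposition order. Values on every measured wild-type embryo and smg array are given for the 12 members with the highest wild-type mean and the 8 with the highest and 8 with the lowest smg mean. Their unfertilized-egg values are given for some of them only. The 3 members inside and up to 3 genes outside each bound, and smg itself, are also named. The members, the role groups, the lists of early zygotic, eggshell, later-embryo and maternal genes, and the alternatives were chosen with earlier results of these data known. Promoter, protein and probe sequences were not analysed here.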

Additional observations from a re-analysis of the deposited data

Results flagged for a closer look

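The wild-type embryo values of comm2 held an array far from the others. Replicate 1 read 2.00, and its gap to the nearest other array was 0.863 of the range over the 4 arrays, above Dixon's critical value of 0.829. In qkr58E-1 wild-type embryo replicate 4 read 2.09, with a gap of 0.856 of the range. These were 2 flags among the 32 groups of 4 arrays that were tested, and chance gives about 1 in 20. The test did not cover every member with 4 arrays, so other members can hold such an array too. In CG8654 smg replicate 1 read 2.17, against -0.069, -0.099 and -0.11 on smg replicates 2 to 4.

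CG8066 was above 0 on every measured wild-type embryo array and below 0 on every measured smg array, where its mean was -0.31. This difference was not tested, because the wild-type embryo values chose the gene. Turning the sign of smg replicate 3 gave an smg mean of 0.17.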

How the results depend on the processing

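The rule found 62 members, and 17 on the values as deposited, 22 with a wild-type mean of at least 1.5, 63 to 94 with each wild-type embryo replicate left out (94 without replicate 2) and 57 to 61 with each unfertilized-egg replicate left out. No member passed limma in smg, except 2 (Aps and CG10479) in the fit of 8 arrays with the set of slides as a block, where the adjusted p was 0.0493 for both. With that block and smg replicate 3 turned, an alternative added after the data were seen, 0 members and 0 genes were called. Over all genes 1 was called, against 0 on deposited values, 0 with smg replicate 3 turned, 3 in the fit of 8 arrays, 32 with the set of slides as a block and 0 to 32 with each smg replicate left out (32 without replicate 3). The median smg level of the members, 0.43, was -0.53 on deposited values, where the replicate 1 pair is not centred, and 0.21 to 0.58 with each smg replicate left out. The median difference, -0.93, was -1.36 on centring by common genes, -1.38 with replicate 3 turned and -1.17 to -0.88 with each replicate left out. The 4 members within the bounds in smg became 1 with replicate 3 turned, 0 on deposited values and 3 to 10 with each replicate left out. The 13 above 0 on every smg array became 4 with replicate 3 turned, 1 on deposited values and 15 to 27 with each replicate left out. The 48 with a mean above 0 became 11 on deposited values and 41 to 50 with each replicate left out. The causes were not tested. Of 256 comparisons over 22 named genes, 214 stayed on the same side, 40 changed sign in genes that were not called, and 2 became calls. The changes of sign were spread widely, as 18 of the 22 genes changed sign in at least 1 setting. No paired analysis was possible because replicate numbers follow the order of deposition and name no pairs, and sets of slides served as the block instead.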

Other observations

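Spots without a single gene name were read with the same bounds. Of 12430 spots not listed in the probe table, 7090 had enough values, and 153 met the wild-type and unfertilized-egg bounds, with a median wild-type mean of 1.51. Of these, 134 had at least 3 smg arrays, and 22 met the bounds in smg too. Their median smg mean was 0.70. The share of all unlisted spots that met the bounds in smg was not taken. The count of 22 is per spot, unlike the counts of members, which are per gene, so nothing is read from it. The genes behind these spots were not named here, and several spots can belong to the same gene.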
